A study of Mus musculus with 6 samples.

Results

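The genes described here encode the enzymes of glycolysis and of the pentose phosphate pathway, with their glucose and lactate transporters and a few regulators. A list of 32 gene symbols was looked up in the gene names of the authors' deposited table, which holds 37867 gene models, and 31 of the 32 had a model under the listed symbol. Where a symbol had several models, the one with the highest FPKM summed over both genotypes was kept. Pkm2 is the table's name for the gene now called Pkm. Tigar, a phosphatase that lowers fructose 2,6-bisphosphate, had no model under that symbol.

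The cells were CD4+/CD8+ thymocytes, the double-positive stage of T cell development, sorted to high purity. They came from mir181a1/b1 Knockout mice (KO below), in which the locus of miR-181a-1 with miR-181b-1 is deleted, or else from Wild type animals (WT below). Both genotypes were of the C57bl6 strain, 3 libraries were made from each, and no age or treatment is given in the labels. The deposited table gives 1 pooled FPKM value per genotype (fragments per kilobase of transcript, scaled to the fragments sequenced), so values of single libraries were not used here, no SD can be given, and the depth is unknown.

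Glycolysis splits glucose into pyruvate in the cytosol and yields ATP, and lactate dehydrogenase can pass the pyruvate on to lactate. The pentose phosphate pathway branches off at glucose 6-phosphate. Its oxidative arm makes NADPH, and its non-oxidative arm exchanges sugar phosphates between ribose 5-phosphate, the precursor of nucleotides, and glycolysis. Proliferating thymocytes are known for high glucose use, which falls as they become small resting double-positive cells. miR-181 is abundant in double-positive thymocytes, where it is known to raise sensitivity to signals of the T cell receptor. The study compared transcripts of these cells with and without the locus of miR-181a-1 and miR-181b-1.

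The deleted microRNAs share their seed, bases 2 to 8 of the mature strand, with 4 other microRNA genes of the mouse. The mature sequences from RefSeq (GRCm38.p6) are shown because they define which sites a transcript would have to carry, with the seed in capitals.
mmu-miR-181a-5p: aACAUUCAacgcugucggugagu
mmu-miR-181b-5p: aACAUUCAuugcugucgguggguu
mmu-miR-181c-5p: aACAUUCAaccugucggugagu
mmu-miR-181d-5p: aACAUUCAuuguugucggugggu
The first of these is made from Mir181a-1 on chromosome 1, absent in KO, and also from Mir181a-2 on chromosome 2. The second is made from Mir181b-1 on chromosome 1, absent in KO, and from Mir181b-2 on chromosome 2. The third and the fourth come from Mir181c and Mir181d on chromosome 8.

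A base-for-base match to the seed was found in the 3′ UTR of 4 of the 31 members (12.9%), against 17.04% of the 8909 coding genes whose FPKM averaged 1 or more. These 4 are the glucose transporter Slc2a3, the phosphofructokinase subunit Pfkp, the pyruvate kinase Pkm2 and the ribose phosphate isomerase Rpia. The median 3′ UTR was 834 bases long over the members and 993 bases over those coding genes, and the shares are not adjusted for length. Hk2 and Aldoc, among the 31, averaged under 1 FPKM. The matches are shown in their surroundings on the mRNA strand of the GENCODE M21 reference transcript (GRCm38), with the match in capitals.
Slc2a3, chr6:122728614-122728642, minus strand: gagacagtgacTGAATGTgcagtgtggtc
Slc2a3, chr6:122727814-122727842, minus strand: aataaaacttcTGAATGTatgtgtcatgt
Pfkp, chr13:6580327-6580355, minus strand: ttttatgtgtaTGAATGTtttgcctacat
Pkm2, chr9:59679332-59679360, plus strand: tagtgcccaccTGAATGTcaataaacagc
Rpia, chr6:70765823-70765851, minus strand: tttttgttgttTGAATGTtttctttatgt
Of these 4 genes Pkm2 was lower in KO and the others did not pass the threshold, with values given below. A match is a description of the sequence and not a measured site.

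The members lower in KO were Slc2a1, Gpi1, Pfkl, Aldoa, Tpi1, Gapdh, Eno1, Pkm2, Ldhb, Pgls, Tkt and Taldo1, and of these Tkt alone was still called after removal of a trend in GC content and transcript length. In the authors' deposited table a gene was called where q, the p-value adjusted over all tested models, was under 0.05. Of the 31 members with a model, 29 were tested by the authors, 12 were lower in KO, none was higher and 17 did not pass. Those 12 are 41.4% of the tested members, while 15.3% of all 13834 tested models were lower by the same rule and 1.79% were higher. Among the 8909 coding genes of at least 1 FPKM, 19.3% were lower and 1.55% higher. In such bulk samples, fewer cells of a type and less RNA per cell cannot be told apart.

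The median log2 ratio, KO over WT, was -0.66 over the 29 tested members, beside -0.17 over all tested models and -0.25 over the coding genes of at least 1 FPKM. Below 0 lay 25 of the 29, while 59.6% of all tested models did. Set against the median of all tested models, 24 of the 29 still lay below it. The FPKM of the 31 members added up to 687 in KO and 1168 in WT, so that KO held 58.8% of the WT sum. The FPKM of all models in the table added up to 297352 in KO and 360688 in WT.

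The count of members moved with the rule. With the GC and length trend removed 1 was lower, Tkt, and none higher, beside 1.01% and 0.819% of 8909 coding genes, and the median of the 29 members was -0.088. At a q under 0.01 there were 10 lower members and none higher, beside 10.1% and 0.745% of all tested models. With the log2 ratios centred on the median of all tested models 9 were lower and none higher, beside 10.8% and 3.6%. With both genotypes scaled to the same FPKM sum 8 were lower and Hif1a was higher, beside 8.65% and 6.19%. Among models of at least 1 FPKM 13 were lower and none higher, beside 17.8% and 2.03%.

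**Figure D1:**
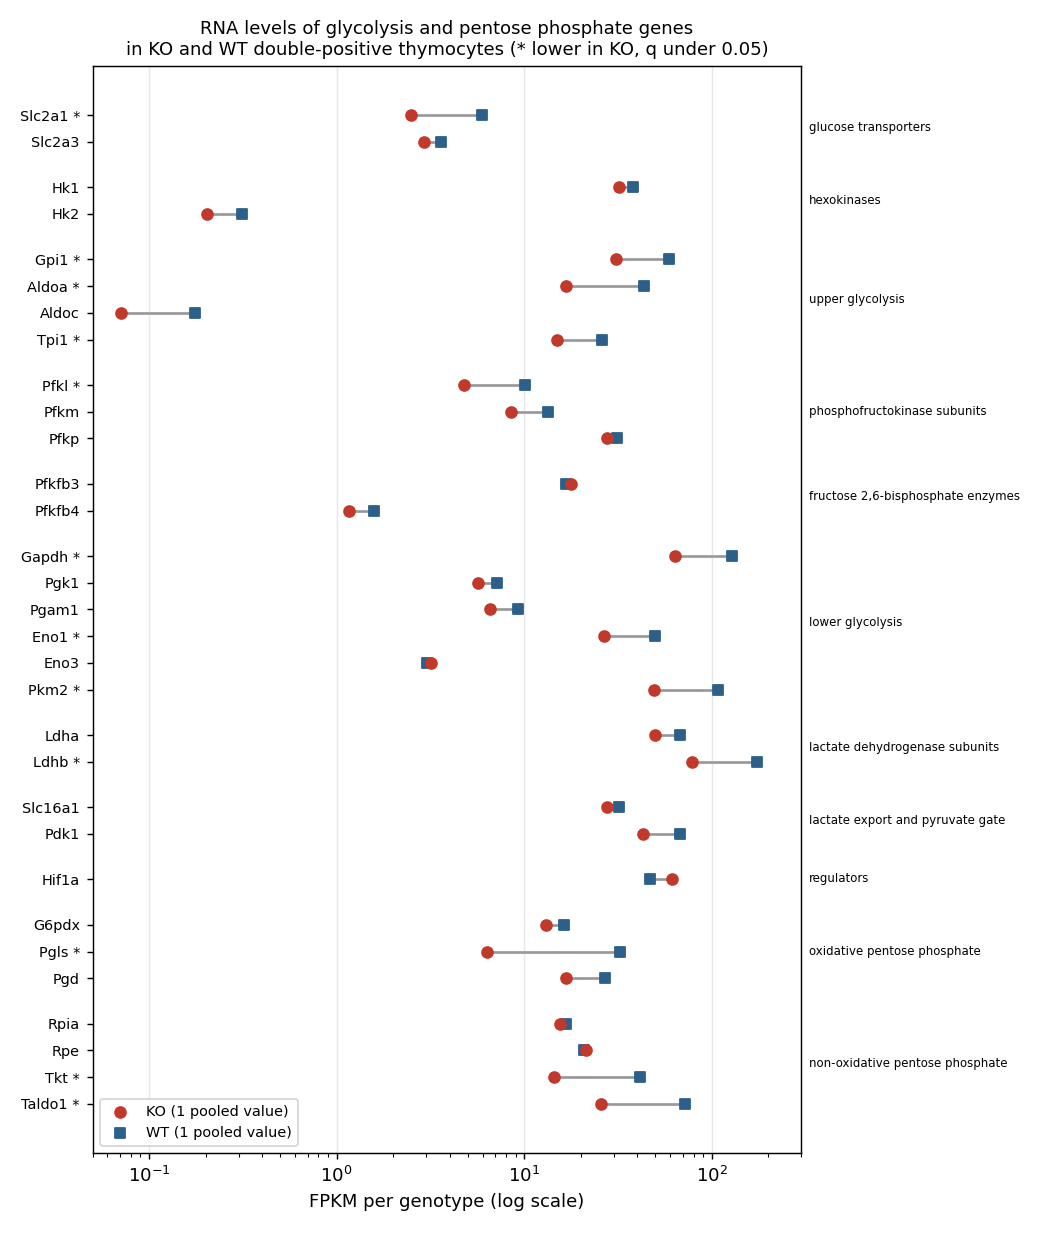
FPKM of the 31 members on a log axis, grouped by role, with KO as red circles and WT as blue squares; each point is 1 value pooled by the authors from 3 libraries, and a star marks the 12 members lower in KO. The gaps are widest for Pgls, Tkt, Taldo1 and Aldoa, and Hif1a, Pfkfb3, Eno3 and Rpe are the members with the KO point to the right.

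Each error below is an implied standard error (SE), obtained by dividing a log2 ratio by its deposited test statistic, and each 95% interval was built from it without adjustment for the number of genes. Its median was 0.29 over the tested members and 0.35 over all tested models. The labels do not say whether the 3 libraries of a genotype came from separate animals, so the spread behind the p-values may be technical.

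At the entry of glucose, the transporter Slc2a1 (GLUT1) was lower in KO and Slc2a3 (GLUT3) did not pass. Slc2a1 stood at 2.48 FPKM in KO and 5.99 FPKM in WT, a log2 ratio of -1.27 with an implied SE of 0.36 (q = 0.00474 in the authors' deposited table). Slc2a3 stood at 2.93 FPKM in KO and 3.59 FPKM in WT, with a log2 ratio of -0.29 and a 95% interval from -0.89 to 0.30. In KO, Slc2a1 made up 45.9% of their summed FPKM, against 62.5% in WT. A difference in change between these transporters was not tested.

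Hexokinase, which traps glucose as glucose 6-phosphate, was almost all Hk1 in these cells. Hk1 stood at 31.8 FPKM in KO and 38.2 FPKM in WT (q = 0.553 in the authors' deposited table), a log2 ratio of -0.26 with an interval from -0.74 to 0.21. Hk2, the hexokinase that is induced in many growing cells, was listed at 0.204 FPKM in KO and 0.314 FPKM in WT and was not tested by the authors. Its share of the hexokinase FPKM was 0.638% in KO and 0.817% in WT.

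Glucose 6-phosphate isomerase, Gpi1, was lower in KO. It stood at 30.8 FPKM in KO and 58.8 FPKM in WT, a log2 ratio of -0.93 with an implied SE of 0.30 (q = 0.0141 in the authors' deposited table). This enzyme sits where glycolysis and the pentose phosphate pathway part.

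Phosphofructokinase commits sugar to glycolysis and is built from 3 kinds of subunit, of which only the liver type, Pfkl, was called. Pfkl stood at 4.79 FPKM in KO and 10.07 FPKM in WT, a log2 ratio of -1.07 with an implied SE of 0.29 (q = 0.00296 in the authors' deposited table). The muscle type, Pfkm, stood at 8.496 FPKM in KO and 13.4 FPKM in WT, a log2 ratio of -0.66 with an interval from -1.20 to -0.11 (q = 0.0888 in the authors' deposited table). The platelet type, Pfkp, stood at 27.4 FPKM in KO and 31.2 FPKM in WT, a log2 ratio of -0.18 with an interval from -0.84 to 0.47. Pfkp was the most abundant of the 3 in both genotypes, with 67.4% of the summed FPKM in KO and 57.0% in WT. Whether the 3 changes differ from each other was not tested.

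The bifunctional enzymes that make and remove fructose 2,6-bisphosphate, the activator of phosphofructokinase, did not pass. Pfkfb3 stood at 17.7 FPKM in KO and 16.6 FPKM in WT, a log2 ratio of 0.092 with an interval from -0.50 to 0.69. Pfkfb4 stood at 1.16 FPKM in KO and 1.59 FPKM in WT, a log2 ratio of -0.45 with an interval from -1.17 to 0.27. Tigar, which also lowers fructose 2,6-bisphosphate, is listed in the table under 9630033F20Rik, a former symbol according to RefSeq. This match was made after its values were seen. That model stood at 0.786 FPKM in KO and 0.966 FPKM in WT (q = 0.702 in the authors' deposited table).

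Further down the first stage of the pathway, aldolase A and triose phosphate isomerase were both lower. Aldoa, which cuts fructose 1,6-bisphosphate into trioses, stood at 16.7 FPKM in KO and 43.3 FPKM in WT, a log2 ratio of -1.37 with an implied SE of 0.29 (q = 8.76e-05 in the authors' deposited table). Tpi1, which interconverts these trioses, stood at 14.9 FPKM in KO and 26.1 FPKM in WT, a log2 ratio of -0.81 with an implied SE of 0.27 (q = 0.0234 in the authors' deposited table). Tpi1 had the smallest change of the 12 called members and lay at 57.1% of its WT level. Aldoc, the brain-type aldolase, was listed at 0.0705 FPKM in KO and 0.175 FPKM in WT and was not tested by the authors.

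In the later stage, where ATP is regained, Gapdh, Eno1 and Pkm2 were lower and the steps between them did not pass. Gapdh, the dehydrogenase that opens this stage and a common reference gene, stood at 63.6 FPKM in KO and 128 FPKM in WT, a log2 ratio of -1.01 with an implied SE of 0.25 (q = 0.000914 in the authors' deposited table). The enolase Eno1 stood at 26.6 FPKM in KO and 50.05 FPKM in WT, a log2 ratio of -0.91 with an implied SE of 0.28 (q = 0.00996 in the authors' deposited table). The pyruvate kinase Pkm2 stood at 49.1 FPKM in KO and 107.6 FPKM in WT, a log2 ratio of -1.13 with an implied SE of 0.34 (q = 0.00881 in the authors' deposited table). The FPKM of these 3 genes in KO was 45.6% to 53.2% of that in WT.

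Phosphoglycerate kinase Pgk1, the first ATP-yielding step, stood at 5.67 FPKM in KO and 7.11 FPKM in WT, a log2 ratio of -0.33 with an interval from -0.97 to 0.32. Phosphoglycerate mutase Pgam1 stood at 6.53 FPKM in KO and 9.23 FPKM in WT, a log2 ratio of -0.50 with an interval from -1.10 to 0.10. Both intervals include 0 and also the log2 ratio of Eno1, and that of Pgam1 includes the ratio of Gapdh. Whether these steps differ in their change was not tested. The muscle enolase Eno3 stood at 3.18 FPKM in KO and 3.05 FPKM in WT, with an implied SE of 0.93 and an interval from -1.76 to 1.88. Eno1 supplied most of the enolase FPKM, 89.3% in KO and 94.3% in WT.

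Of the lactate dehydrogenase subunits, Ldhb was lower in KO and Ldha did not pass. Ldhb, the heart-type subunit and the most abundant member in both genotypes, stood at 78.8 FPKM in KO and 174 FPKM in WT, a log2 ratio of -1.14 with an implied SE of 0.24 (q = 5.81e-05 in the authors' deposited table). Ldha, the muscle-type subunit that favours lactate formation, stood at 49.9 FPKM in KO and 67.5 FPKM in WT, a log2 ratio of -0.44 with an interval from -0.97 to 0.10. Ldha thus made up 38.8% of the summed lactate dehydrogenase FPKM in KO and 28.0% in WT. A difference in change between the subunits was not tested. A model listed over the same span and named linc-Ldha-AS stood at 41.05 FPKM in KO and 67.5 FPKM in WT (q = 0.382 in the authors' deposited table). The library kit does not mark strand, so reads of Ldha and of an antisense transcript cannot be told apart.

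**Figure D2:**
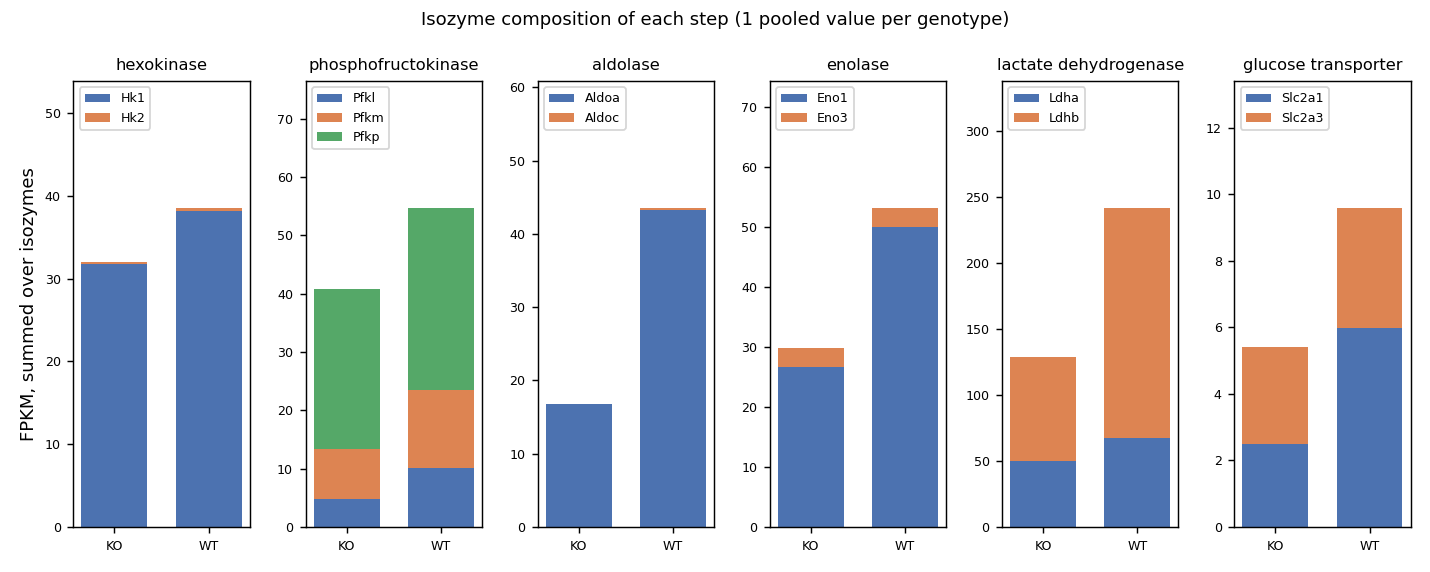
FPKM of the isozymes of 6 steps, stacked, for KO and WT, 1 pooled value per genotype with no error bar; vertical scales differ between panels. Hk1 and Aldoa make up nearly the whole of their bars, Pfkp is the largest part of the phosphofructokinase bars, and Ldhb is the larger part of the lactate dehydrogenase bars in both genotypes.

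Pyruvate leaves glycolysis as exported lactate or through the mitochondrial pyruvate dehydrogenase, and the members at this branch did not pass. Slc16a1 (MCT1), which carries lactate across the plasma membrane, stood at 27.6 FPKM in KO and 32.2 FPKM in WT, a log2 ratio of -0.22 with an interval from -0.68 to 0.23. Pdk1, a kinase that shuts pyruvate dehydrogenase off, stood at 42.8 FPKM in KO and 67.4 FPKM in WT, a log2 ratio of -0.66 with an interval from -1.29 to -0.02 (q = 0.162 in the authors' deposited table).

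Hif1a, the transcription factor that induces many glycolytic genes at low oxygen, did not pass and had the highest ratio of the 29 tested members. It stood at 61.2 FPKM in KO and 46.9 FPKM in WT, a log2 ratio of 0.38 with an interval from -0.10 to 0.86 (q = 0.325 in the authors' deposited table). With both genotypes scaled to the same FPKM sum, Hif1a was called higher in KO, at a log2 ratio of 0.66 and an adjusted p of 0.0467 from the implied SE.

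In the oxidative arm of the pentose phosphate pathway, only the middle enzyme passed the threshold. Pgls, the 6-phosphogluconolactonase, had the largest fall of the 12 called members and stood at 6.30 FPKM in KO and 32.4 FPKM in WT, or 19.4% of the WT level (log2 ratio -2.37, implied SE 0.37, q = 2.56e-08 in the authors' deposited table). A second model of the name Pgls, next to the first, stood at 3.08 FPKM in KO and 5.27 FPKM in WT (q = 0.0887 in the authors' deposited table). G6pdx, glucose 6-phosphate dehydrogenase and the rate-limiting step of the arm, stood at 13.0 FPKM in KO and 16.2 FPKM in WT, a log2 ratio of -0.32 with an interval from -1.05 to 0.41. Pgd, 6-phosphogluconate dehydrogenase, which yields the second NADPH of the arm, stood at 16.7 FPKM in KO and 27.0 FPKM in WT. Its log2 ratio was -0.69 with an interval from -1.22 to -0.17 and a q of 0.0557, just outside the threshold in the authors' deposited table.

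In the non-oxidative arm, both enzymes that shuttle carbon between sugar phosphates were lower and both enzymes that interconvert pentose phosphates did not pass. The transketolase Tkt stood at 14.4 FPKM in KO and 41.2 FPKM in WT, or 34.9% of the WT level (log2 ratio -1.52, implied SE 0.26, q = 3.72e-07 in the authors' deposited table). The transaldolase Taldo1 stood at 25.6 FPKM in KO and 71.7 FPKM in WT, or 35.7% of the WT level (log2 ratio -1.49, implied SE 0.27, q = 1.86e-06 in the authors' deposited table). The 95% intervals of Tkt and Taldo1 end at -1.01 and -0.96.

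Rpia, the ribose phosphate isomerase, stood at 15.5 FPKM in KO and 16.7 FPKM in WT, a log2 ratio of -0.11 with an interval from -0.65 to 0.42. Rpe, the ribulose phosphate epimerase, stood at 21.4 FPKM in KO and 20.8 FPKM in WT, with an implied SE of 0.91 and an interval from -1.75 to 1.84. The interval of Rpia lies above those of both Tkt and Taldo1, while that of Rpe overlaps both. Whether the enzymes differ in their change was not tested beyond these intervals.

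**Figure D3:**
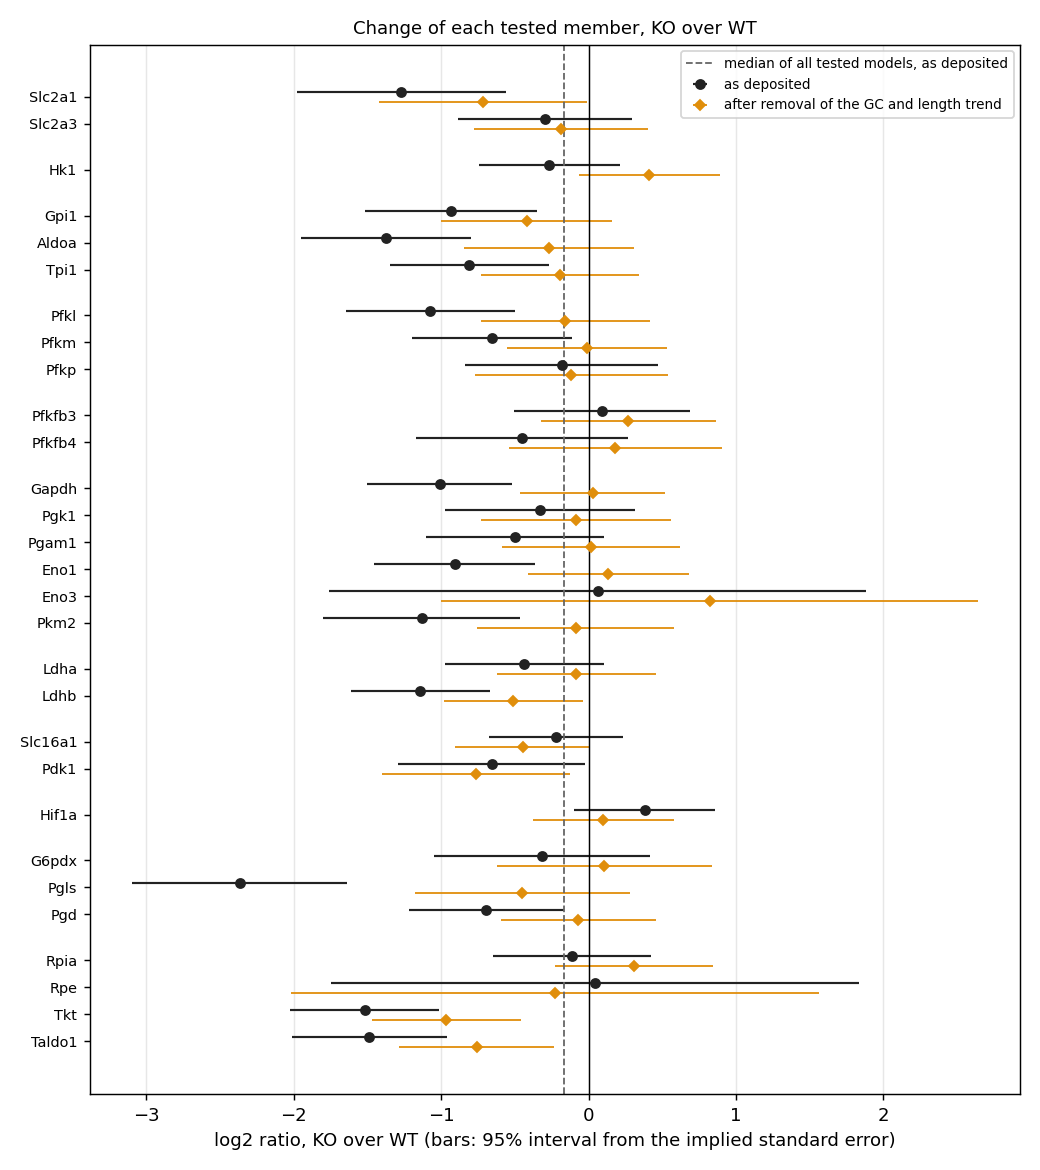
Log2 ratio, KO over WT, of the 29 tested members with 95% intervals from the implied standard error, as deposited (black circles) and after removal of the trend with GC content and length (orange diamonds); the dashed line marks the median of all tested models at -0.17. As deposited 25 of 29 points lie below 0, and after the removal 19 lie below 0 and 10 above.

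The ratios of the members followed the base composition of their transcripts, as did those of coding genes in general. Over the 29 tested members, Spearman's rho between the log2 ratio and transcript GC content was -0.639, and over the 8909 coding genes of at least 1 FPKM it was -0.762. Both are correlations across genes that share the same 6 libraries and are given as descriptions. The 12 called members had a GC content of 53.0% to 65.4% with a median of 55.3%, and the 17 that did not pass had 39.0% to 55.2% with a median of 51.0%. The coding genes had a median of 50.03%, and 22 of the 29 tested members lay above it. Called members also had shorter reference transcripts, with a median of 1817 bases, against 2879 bases for those not called.

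Splines of GC content and transcript length were fitted to the log2 ratios of the 8909 genes by robust regression, and what remained of each ratio was tested against its implied SE. By this measure 1 of the 29 members was lower, Tkt, and none was higher, beside 1.01% of the genes lower and 0.819% higher. Tkt kept a log2 value of -0.96 with an interval from -1.47 to -0.46 and a Benjamini-Hochberg q of 0.0177. The median of the 29 members was then -0.088, beside 0.0019 for the coding genes. The part of base composition in the result was not tested.

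The members differed in how much of their ratio was left. Taldo1 kept -0.76, Slc2a1 -0.72, Ldhb -0.51, Pgls -0.45 and Gpi1 -0.42, with adjusted p values of 0.136, 0.486, 0.403, 0.860 and 0.784. Pgls, the member richest in G and C at 65.4%, had a trend value of -1.92 at its composition and length. Gapdh and Eno1 came to 0.027 and 0.13, Pkm2 to -0.088, Pfkl to -0.16, Tpi1 to -0.19 and Aldoa to -0.27. For these 6 enzymes what was left was smaller than the implied SE. Pdk1 and Slc16a1, which are poorer in G and C at 46.4% and 42.9%, lay further below 0 than as deposited, at -0.76 and -0.45, with adjusted p values of 0.302 and 0.514.

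**Figure D4:**
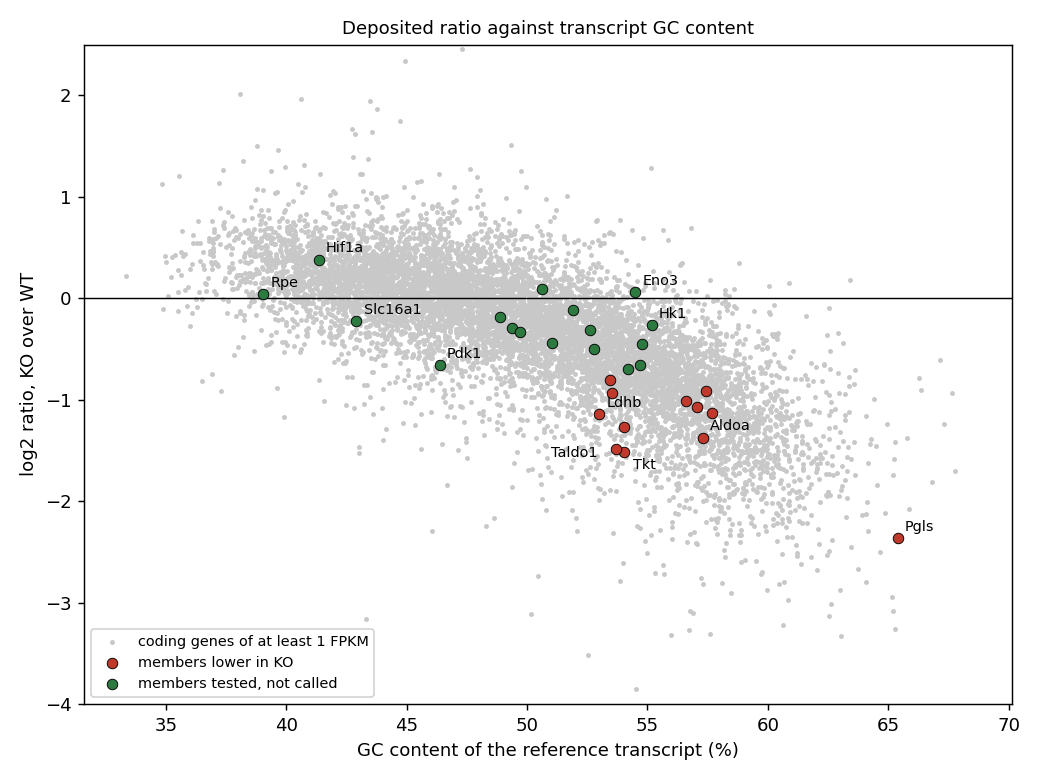
Log2 ratio, KO over WT, against the GC content of the reference transcript in percent, for 8909 coding genes of at least 1 FPKM (grey, 7 of them outside the axis range) and the 29 tested members (red where lower in KO, green where not called). The members lie along the downward slope of the grey cloud, with Tkt and Taldo1 below its middle at their GC content and Pgls at the far right.

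The promoters of the members were compared for motifs of factors known to act on glycolytic genes. The window ran from 250 bases before to 50 bases after the transcript start in RefSeq (GRCm38.p6), and 30 of the 31 members had one or more such promoters, 44 in all. The E-box CACGTG, bound by Myc and related factors, was found in none of the 17 promoters of the 12 lower members and in 5 of the 24 promoters of members that did not pass (Ldha, Slc16a1, Hif1a, Pfkfb3 and Pfkm), against 10.4% of 9319 promoters of coding genes of at least 1 FPKM. The core ACGTG of the element bound by HIF factors, searched on both strands and contained in each CACGTG, was found in 5 of the 17 and 11 of the 24, against 26.4% of the 9319. Over all 32851 promoters of the table the shares were 7.15% and 19.6%. These are counts of promoters and not of genes, and overlapping promoters of a gene, as for Aldoa, can hold the same match. The counts describe sequence and say nothing of binding in these cells.

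The promoters of 4 members are shown as examples, in lower case with each ACGTG or its reverse complement CACGT in capitals. Ldha and Ldhb encode the subunits of one enzyme, Slc2a1 is the entry step, and Tkt is the member that stayed past the threshold after the trend was removed.
Ldha, chr7:46845554-46845853, plus strand: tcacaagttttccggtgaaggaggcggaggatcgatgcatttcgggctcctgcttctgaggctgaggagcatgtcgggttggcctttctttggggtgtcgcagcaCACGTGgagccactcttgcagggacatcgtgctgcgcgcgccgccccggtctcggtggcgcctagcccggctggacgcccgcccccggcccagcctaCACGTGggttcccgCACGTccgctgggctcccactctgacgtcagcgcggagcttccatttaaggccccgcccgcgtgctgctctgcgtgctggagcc
Ldhb, chr6:142507908-142508207, minus strand: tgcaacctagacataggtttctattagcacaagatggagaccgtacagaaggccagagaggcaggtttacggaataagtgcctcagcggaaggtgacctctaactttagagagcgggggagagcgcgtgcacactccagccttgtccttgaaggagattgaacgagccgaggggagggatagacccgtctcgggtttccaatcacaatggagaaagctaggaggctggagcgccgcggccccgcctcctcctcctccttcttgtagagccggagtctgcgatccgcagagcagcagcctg
Slc2a1, chr4:119108495-119108794, plus strand: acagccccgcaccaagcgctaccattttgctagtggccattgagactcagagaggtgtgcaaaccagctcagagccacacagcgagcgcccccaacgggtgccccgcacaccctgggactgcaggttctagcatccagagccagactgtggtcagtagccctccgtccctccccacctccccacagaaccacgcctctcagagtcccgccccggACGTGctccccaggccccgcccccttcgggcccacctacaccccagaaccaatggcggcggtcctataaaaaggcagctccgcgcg
Tkt, chr14:30548881-30549180, plus strand: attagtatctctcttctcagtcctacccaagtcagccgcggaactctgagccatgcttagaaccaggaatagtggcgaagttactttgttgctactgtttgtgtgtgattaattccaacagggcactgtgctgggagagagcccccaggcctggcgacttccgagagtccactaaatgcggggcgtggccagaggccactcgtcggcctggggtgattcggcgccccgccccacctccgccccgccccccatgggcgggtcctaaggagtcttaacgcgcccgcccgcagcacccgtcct
This promoter of Ldha holds 2 copies of CACGTG and a further CACGT outside them. That of Slc2a1 holds 1 ACGTG, and those of Ldhb and Tkt hold none of these motifs. Another promoter of Ldha, not shown, holds none of them either.

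A wider list of 88 genes around these pathways gave fewer calls. It holds other isozymes, the pyruvate dehydrogenase complex, glycogen and galactose enzymes, and oxygen-sensing and Myc-related regulators, and 62 of its genes were tested. Of these, 9 were lower in KO (14.5%), none was higher, and their median log2 ratio was -0.28. That share is near the 15.3% of all tested models. Galk1, the kinase that brings galactose into glucose metabolism, had the lowest log2 ratio of the 9, at -2.62. Galk1 stood at 2.70 FPKM in KO and 16.6 FPKM in WT (q = 3.00e-11 in the authors' deposited table). With the GC and length trend removed, Galk1 came to -1.05 and was not called (adjusted p of 0.0979 from the implied SE).

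Among the regulators, Myc, a driver of glycolytic transcription, stood at 4.91 FPKM in KO and 13.05 FPKM in WT (log2 ratio -1.41, q = 0.00158 in the authors' deposited table). Egln2, one of the hydroxylases that mark HIF factors for decay, stood at 7.81 FPKM in KO and 22.6 FPKM in WT (q = 9.66e-06 in the authors' deposited table). Both are rich in G and C, and after removal of the trend they came to -0.18 and -0.0018. Arnt, the partner of Hif1a, stood at 27.2 FPKM in KO and 28.2 FPKM in WT, and Txnip, an inhibitor of glucose uptake, at 157 FPKM in KO and 209 FPKM in WT, neither of which passed.

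The others called were Bsg, the chaperone of lactate transporters, at 44.3 FPKM in KO and 74.8 FPKM in WT, and Pdk2, a further pyruvate dehydrogenase kinase, at 9.36 FPKM in KO and 15.8 FPKM in WT. H6pd, which runs the oxidative pentose steps inside the endoplasmic reticulum, stood at 17.2 FPKM in KO and 28.4 FPKM in WT. Dera, an aldolase of deoxyribose phosphate, stood at 12.7 FPKM in KO and 22.5 FPKM in WT. The intracellular hexose transporter Slc2a8 stood at 0.231 FPKM in KO and 0.885 FPKM in WT. In the authors' deposited table the q of these 5 lower genes ran from 0.0121 to 0.0469. After removal of the trend Bsg came to 0.38, Pdk2 to 0.21, H6pd to 0.020 and Dera to -0.59, none of them called. Slc2a8 averaged under 1 FPKM and was not part of the fit.

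The most abundant tested genes of the remaining groups did not pass. Prps2, which makes phosphoribosyl pyrophosphate from ribose 5-phosphate, stood at 88.6 FPKM in KO and 82.3 FPKM in WT, a log2 ratio of 0.11 with an interval from -0.33 to 0.54. Pdha1, a subunit of pyruvate dehydrogenase, stood at 51.8 FPKM in KO and 60.8 FPKM in WT. Bpgm, a mutase of the later stage of glycolysis, stood at 20.6 FPKM in KO and 24.5 FPKM in WT, and Gpd2, of the glycerol phosphate shuttle, at 19.4 FPKM in KO and 18.9 FPKM in WT. The mitochondrial pyruvate carrier Brp44, now called Mpc2, stood at 13.4 FPKM in KO and 15.2 FPKM in WT, and the glycogen phosphorylase Pygb at 12.0001 FPKM in KO and 16.6 FPKM in WT. Adpgk, an ADP-dependent glucokinase, stood at 7.53 FPKM in KO and 8.19 FPKM in WT, Pfkfb2 at 6.67 FPKM in KO and 5.75 FPKM in WT, and the urate and hexose transporter Slc2a9 at 1.42 FPKM in KO and 2.67 FPKM in WT. The glucose 6-phosphatase G6pc3 stood at 0.550 FPKM in KO and 1.03 FPKM in WT, and the tumour suppressor Trp53 at 35.7 FPKM in KO and 44.6 FPKM in WT.

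The called members lie on several chromosomes. In mm9, as the table gives them, Tkt lies on chromosome 14 from 31362334 to 31387908, Taldo1 on chromosome 7 from 148578109 to 148588867, and Pgls on chromosome 8 from 74116082 to 74124991. Slc2a1 lies on chromosome 4 from 118777548 to 118815823, Aldoa on chromosome 7 from 133938749 to 133973729, and Ldhb on chromosome 6 from 142438768 to 142456463. These spans are those of whole gene models, exons and introns together, and where models overlap the table gives their joint span. Other members also share a span with tested models. Pkm2 overlaps Parp6, at 32.6 FPKM in KO and 29.1 FPKM in WT. Rpe overlaps 1110028C15Rik, at 44.3 FPKM in KO and 30.2 FPKM in WT. Pfkp overlaps Pitrm1, and G6pdx overlaps Ikbkg. How far reads were shared between such models was not tested.

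The reads of some members could have been divided among copies. In GENCODE, 71 other genes, 68 of them pseudogenes, hold a transcript at least 95% identical to that of Gapdh over at least 50% of its length, and Pgk1, Eno1, Pkm2, Ldha and Ldhb have 1 to 3 such copies each. How such reads were assigned is not stated in the labels, so the levels of these 6 members are uncertain to that extent. Tkt, Taldo1, Pgls, Aldoa and Slc2a1 have no such copy.

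Across the table the cells carried the marks of their stage. The 8 markers of double-positive cells stood at 162 to 1241 FPKM in KO and 134 to 1683 FPKM in WT, none of them called. Markers of B cells, dendritic cells and erythroid cells summed to at most 0.670 FPKM in KO and 1.346 FPKM in WT per cell type, and those of macrophages and neutrophils to 2.74 FPKM in KO and 4.66 FPKM in WT, with Itgam lower in KO. Of the 5 stromal markers, Pecam1 alone stood above 1 FPKM, at 51.5 FPKM in KO and 55.5 FPKM in WT, and Pdgfra was at 0 in both. Il2ra, known from the earlier double-negative cells, was higher in KO, at 29.4 FPKM in KO and 2.89 FPKM in WT (log2 ratio 3.35). Kit, the other such marker, stood at 0.370 FPKM in KO and 0.672 FPKM in WT and did not pass. The transcript that spans the deleted microRNA genes stood at 156 FPKM in KO and 3.35 FPKM in WT. Its level does not check the labels, since the mature microRNAs are not part of the table. Whether any of these differences bears on the enzymes was not tested.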

How the data were processed

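RNA of 6 libraries, 3 KO and 3 WT, was sequenced by the authors. Per the labels' protocols, extraction used Trizol or RNeasy, not tied to single libraries, and a TruSeq RNA kit followed. Per the submitters' processing notes, TopHat2 and mm9 were used; no source used here names the counting and testing tools. Per the file headers, the deposited table holds 1 FPKM value per genotype, a log2 ratio of WT over KO (turned here to KO over WT), a score, the test statistic, and a p-value and a q-value. The authors pooled the libraries, so no count test was possible, and their q under 0.05 is the call, as foreseen for such a table.

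The members, gene lists and tests were chosen with earlier results of these data known. All 32 members are named by rule, with every called gene of the wider list, except 1 not reported here, and the most abundant tested one of each of its groups.

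One reference transcript per coding gene came from GENCODE M21 (CCDS first, then APPRIS principal, then best support, then longest). Genes with a transcript over 1.2 times the span of their model were left out (61). The trend was fitted with statsmodels 0.14.6, B-splines with 5 degrees of freedom each and Huber weights. The fit was tested on data simulated from that trend with noise of the implied SE. Such a test cannot show that the trend suits the real data. Adjusted p values are Benjamini-Hochberg values from normal tails of the implied SE. Alternatives were a stricter q, centring, equal FPKM sums, the trend removal, a minimum of 1 FPKM, a pseudocount of 1 and summed models.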

Additional observations from a re-analysis of the deposited data

How the results depend on the processing

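The 12 members lower in KO became 10 at a q under 0.01, 9 after centring on the median of all tested models, 8 with equal FPKM sums and 13, with Pgd added at an adjusted p of 0.0498, among models of at least 1 FPKM. With the GC and length trend removed, 1 remained and their median log2 ratio was -0.088 in place of -0.66; no member was higher in any of these except Hif1a with equal FPKM sums, 1 higher. The median stayed between -0.69 and -0.38 in the others. Where the locus held another tested model, members were left out in a setting chosen after seeing the data, which gave 9 lower of 19. The 9 lower genes of the wider list became 4 at a q under 0.01, 5 after centring and 5 with equal FPKM sums, each scaling adding 1 higher gene. With the trend removed there were 0, among the 51 of the 62 tested genes that entered the fit. Slc2a8, 1 of the 9, was not among these.

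Calls of Gpi1, Tpi1 and Eno1 were lost after centring (adjusted p 0.0613, 0.0990 and 0.0515), and with equal FPKM sums those 3 and Pkm2 (adjusted p 0.121, 0.186, 0.109 and 0.0710). Signs turned after centring for Rpia (0.053), and with equal FPKM sums for Hk1 (0.014), Pfkp (0.095), Slc16a1 (0.056) and Rpia (0.17). With the trend removed they turned for Hk1 (0.41), Pfkfb4 (0.18), Gapdh (0.027), Pgam1 (0.016), Eno1 (0.13), G6pdx (0.11), Rpia (0.31) and Rpe (-0.23). The causes were not tested. A pseudocount of 1 or FPKM summed over models turned the direction of none of the 29 ratios. A median counted as moved when it shifted by more than the members' median SE.

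No paired analysis was possible because each genotype has 1 pooled value; for the same reason leaving out a library was not run. Depth is unknown, so only the test statistic tells of precision. Eno3 and Rpe, with implied SEs above 0.9, have intervals that include both 0 and the log2 ratios of Tkt and Taldo1.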
